A study of Gallus gallus with 26 samples.

Results

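The libraries described here are the 3 RNA-seq libraries of the chick phalange, out of 26 samples in a study that also holds interzone RNA-seq and histone ChIP-seq. Their genes were ranked by the mean of the normalized counts of Phalange 1, 2 and 3, and the most abundant genes, the transcription factors, the signalling genes and the genes that differed most among the 3 libraries are given. All 15984 genes of the table were used, 3958 of them known only by an Ensembl identifier. No comparison with the interzone was made. The tissue was the part of the phalange next to the joint interzone in digit 3 of the hindlimb, microdissected at 7.5 days of incubation (stage HH32) from White Leghorn embryos, with no treatment and no genetic change named in the labels. Each library held poly(A)-RNA amplified by Smart-seq2, in which full-length cDNA is copied by PCR before it is cut and sequenced. How many embryos went into a library was not stated in the sources used here, so the spread reported below may hold technical as well as biological differences. A normalized count is the number of reads on a gene divided by the size factor of the library. It is not divided by the length of the gene, so the order of genes is an order of sequenced reads and not of molecules. Where 3 values of a gene are given, they are those of Phalange 1, 2 and 3 in that order.

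The phalange at this stage is a rod of cartilage that prefigures the bone. Its chondrocytes are kept in the cartilage state by *SOX9* with *SOX5* and *SOX6*, and they secrete fibrils of collagen II with collagens IX and XI, together with aggrecan, link protein and matrilins. Aggrecan carries chondroitin sulphate chains, whose synthesis and sulphation draw on UDP-sugars and on the sulphate donor PAPS. Later, chondrocytes in the middle of the rod enlarge and switch on collagen X, while the layer of cells around the rod, the perichondrium, gives rise to bone-forming cells and attracts blood vessels. Per a figure legend of the study, the soft tissue around the digits was taken off before the phalange was cut out. Markers of muscle, vessels, blood, tendon and skin are given further on. In such bulk tissue, fewer cells of a type and less RNA per cell cannot be told apart.

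Between 12431285 and 13830672 reads per library lay on genes, and every value was a whole number of reads (within 0.01) times the value of 1 read. A gene at 0 reads allows up to 3 reads, which is about 2.87 to 3.15 normalized counts, for counting error only. The libraries were not copies of each other: over the 7773 genes with a mean of at least 100, the chi-square statistic of a pair of libraries was between 101 and 125 per gene, where sampling of reads alone gives about 1. Phalange 1 stood apart in several ways. Most genes placed on chromosome W, which in birds only females carry, were at or near 0 in it. Genes of blood and of skeletal muscle were highest in it. Phalange 2 had the highest level of every named gene of the mitochondrial genome. The values of these groups are given at the end, and most genes below are given for each library, so that their level without any one of them can be read.

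The levels of 15 cartilage genes are given first, as a description and not as an independent check of the tissue label. Among them are *MATN1*, *CYTL1* and *SNAI1*, which the paper itself reported as phalange genes from these same libraries. Of the 15 genes, 14 had a mean of at least 100, as had 7773 of all 15984 genes, and 1 did not reach 10. *CYTL1*, a small secreted protein of chondrocytes, had 26735, 39887 and 38565 normalized counts and a mean of 35062 ± 7242 (SD, n = 3), at rank 24 of all genes. *MATN1*, the cartilage matrix protein matrilin-1, had 6418, 18820.2 and 15769 and rank 115. *SNAI1*, a zinc finger repressor best known from epithelial-mesenchymal transition, had 8057, 8930.3 and 9587 and rank 212. Of the collagen IX chains, *COL9A1* had 28473, 37319 and 35329.7. Its partner *COL9A3* had 12369, 23106 and 22941. All 5 of these genes were thus well above the limit of detection in every library. *COL2A1*, the chain of collagen II, had 2417, 3083 and 2948 and rank 947. How completely the annotation covers this gene was not tested. Aggrecan, *ACAN*, had 3886, 8325 and 6657. *LECT1*, the older symbol of chondromodulin (*CNMD*), an inhibitor of vessel growth made by cartilage, had 15506, 25740.0 and 24242. In each of the 3, Phalange 1 was lowest and Phalange 2 highest. Of the transcription factors, *SOX9* had 4541, 8037 and 10459.6, *SOX5* had 786, 1601 and 1349.8, and *SOX6* had 207, 611 and 441. All but 1 of the 15 genes were thus detected, and the exception was *MATN3*, with 0 reads in Phalange 1 and 2 and 12.4 normalized counts in Phalange 3. *COL11A1* was not analysed here. In all 14 detected cartilage genes the lowest library was Phalange 1, against 34.8% of all 7773 genes with a mean of at least 100. Their summed level was 111498 in Phalange 1, 178985 in Phalange 2 and 172959 in Phalange 3. The list was chosen with earlier results of these data known, so the count is a description.

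**Figure D1:**
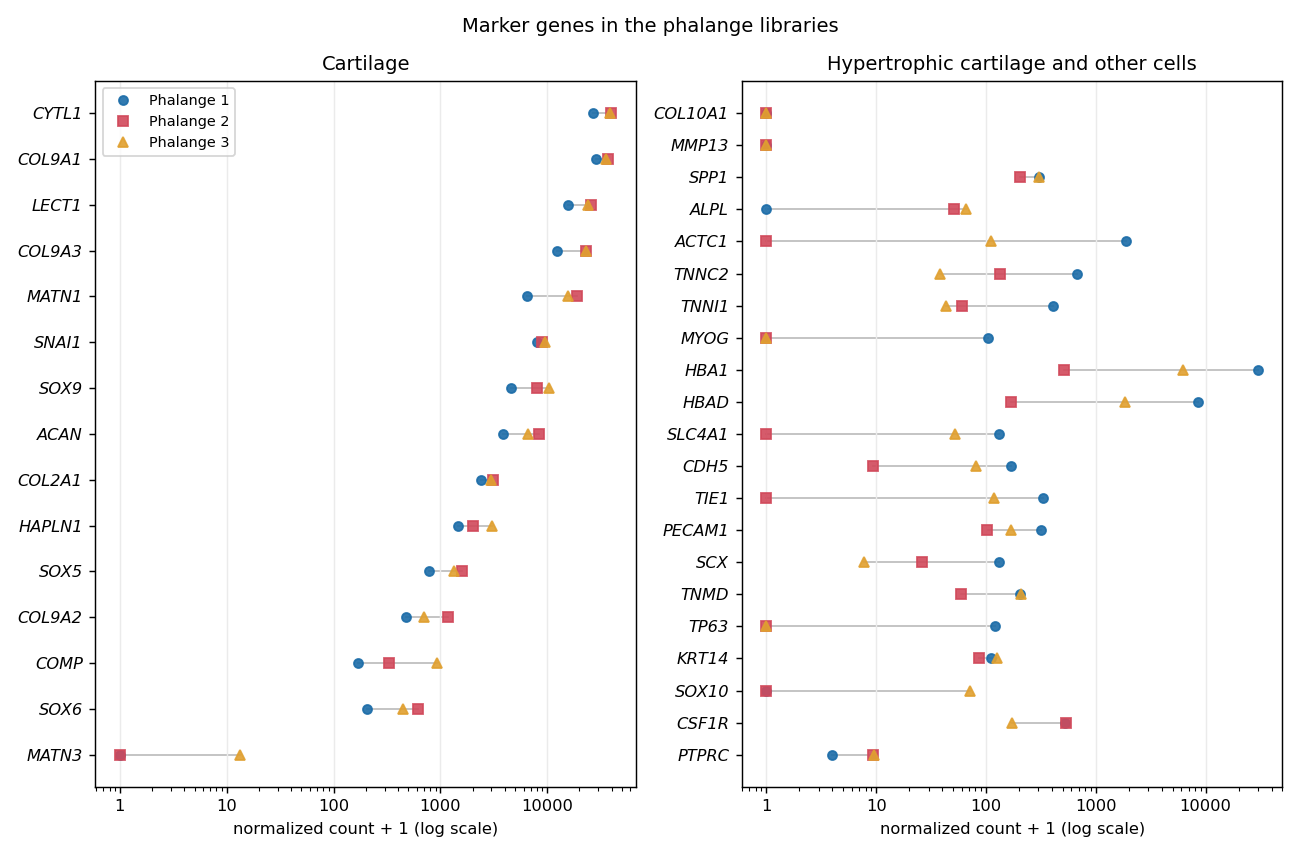
Normalized count + 1 (horizontal, log scale) of the 15 cartilage genes (left) and of markers of hypertrophic cartilage and of other cells (right) in Phalange 1 (circles), 2 (squares) and 3 (triangles), with a line over the range. Phalange 1 is lowest for all 14 detected cartilage genes and highest for the globins and for the muscle genes shown, and *COL10A1* and *MMP13* sit at 0 reads in all 3 libraries.

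Of the 15984 genes, 11711 (73.3%) were detected, taken here as a mean of at least 10 normalized counts. The gene lists hold only genes with a symbol, whereas the 73.3% also covers genes without one. Of the 11741 genes placed on a chromosome by symbol, 9749 were detected, a higher share. A list above 73.3% is thus not by itself detected more often than other named genes. A read was found for 13214, 12615 and 13568 genes in the 3 libraries, 11238 genes had a read in all 3, and 954 had none in any. By level, 3938 genes had means from 10 to 100, 5186 from 100 to 1000, 2406 from 1000 to 10000, and 181 had 10000 or more. The 10 most abundant genes held 8.60% of all normalized counts, the 100 most abundant 25.5% and the 1000 most abundant 63.1%, and 512 genes held 50.0% of them. For the 100 most abundant genes the share was 23.9% in Phalange 1, 27.5% in Phalange 2 and 25.1% in Phalange 3. Of these 100 genes, 70 were among the 100 most abundant of each single library.

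**Figure D2:**
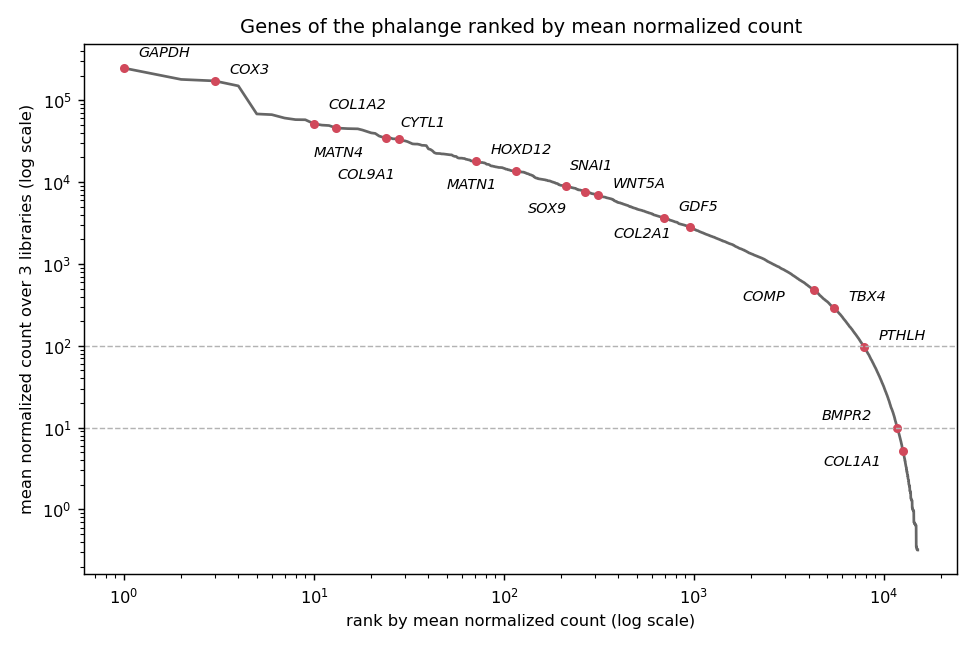
Mean normalized count over the 3 libraries (vertical, log scale) against rank (horizontal, log scale) of all genes with a read, with named genes as points. Dashed lines mark the means of 10 and 100. The curve falls slowly over the 1000 most abundant genes, which hold 63.1% of the counts, and steeply below a mean of 100.

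The most abundant gene was *GAPDH*, an enzyme of glycolysis, with 210747, 271169 and 260776 normalized counts and a mean of 247564 ± 32305 (SD, n = 3). Next came a gene without a symbol, ENSGALG00000032142, with 137363, 274065 and 128455, and *COX3*, a cytochrome oxidase subunit coded in the mitochondrial genome, with 128591, 256800 and 132430. In both of these Phalange 2 stood well above the others. *ACTB*, cytoplasmic actin, had 163277, 138726 and 147846. The mitochondrial *CYTB* followed with 61294, 96817 and 46170.3, again highest in Phalange 2, and the polyubiquitin gene *UBB* had 61983, 60299 and 77939. Beyond them the 25 highest genes were mostly those that any dividing and secreting cell uses. They included the chaperones *HSPA8* (57598, 52556 and 63972) and *HSP90AA1* (44306, 41199 and 49435), the tubulin *TUBA1A* (68748, 45877 and 58884), the ribosomal proteins *RPL4* and *RPL8*, the elongation factors *EEF1A1* and *EEF2*, the ferritin chain *FTH1*, calmodulin *CALM2*, the prolyl isomerase *PPIA*, the histone *H3F3B*, the splicing regulator *HNRNPH1* and the glycolytic enzyme *PGAM1*. Only 3 of the 25 are genes of matrix or secreted cartilage products. These were *COL1A2*, the gene of the second chain of collagen I, with 55450.3, 50664 and 48906, *MATN4* (matrilin-4) with 24339, 50849 and 63137, and *CYTL1*. Counts per gene cannot tell which transcript of *COL1A2* was read. ENSGALG00000032456, LOC776816 and LOC101747587 carry no gene name in the table. Of the 24 pairs of neighbours in this order, 23 overlapped in their library values, and the exception lies between *ACTB* and *CYTB*. Library by library, 2 of the 24 pairs had the same order in all 3.

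**Figure D3:**
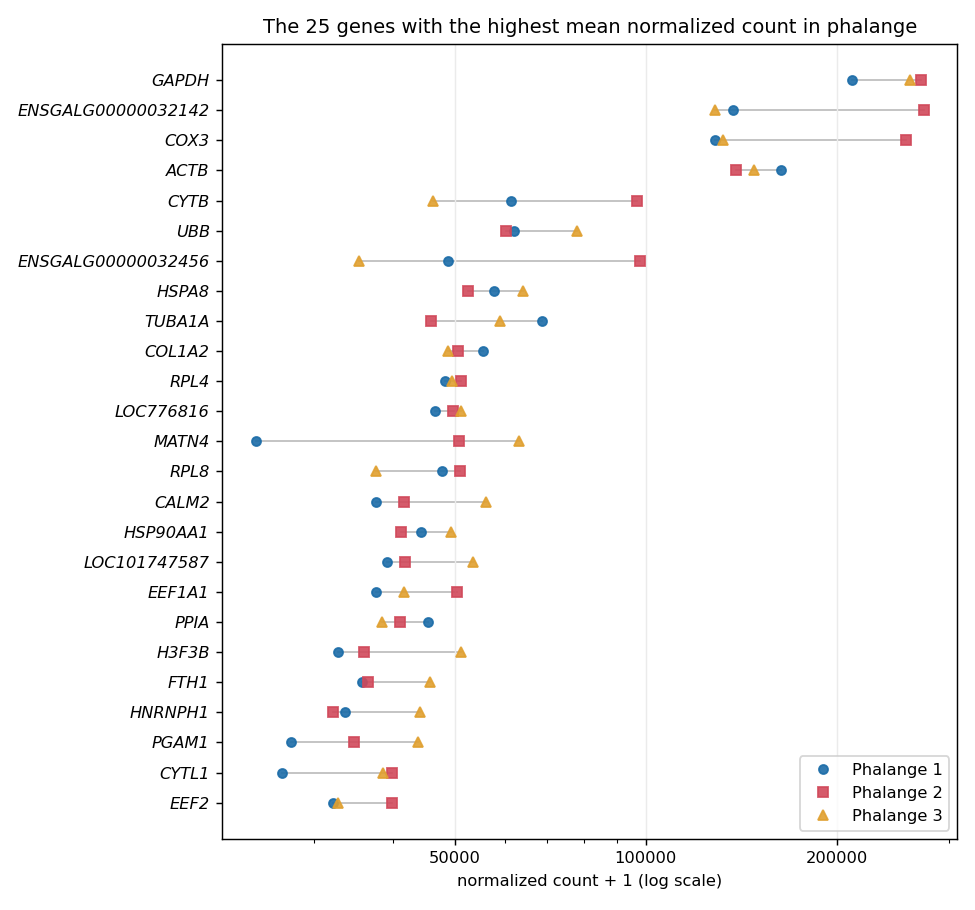
Normalized count + 1 (horizontal, log scale) of the 25 genes with the highest mean, in order of the mean, in Phalange 1 (circles), 2 (squares) and 3 (triangles). *GAPDH*, ENSGALG00000032142, *COX3* and *ACTB* stand apart from the rest, and most other neighbours overlap.

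By function, the cytosolic ribosomal proteins held the largest share among the lists of genes with a general cell function. Their 67 genes took 5.23% of all normalized counts, and 66 of them had a mean of at least 100. Glycolysis held 3.14% with 18 genes, most of it from *GAPDH*. Of the other enzymes of the list, *PGAM1* had 27632, 34693 and 43809, *ENO1* had 13168, 19597 and 26098, and *LDHA*, lactate dehydrogenase, had 5950.1, 7489 and 10027. In all, 9 of the 14 genes of the list with a mean of at least 100 were highest in Phalange 3, against 32.7% of all genes. The gene listed as *PKLR*, a pyruvate kinase, had 23911, 23960.2 and 39676, and that listed as *PGK2*, a phosphoglycerate kinase, had 20020.5, 21084 and 42698. Since *PKM* and *PGK1* were not analysed here, these names may not tell the isoform. The 9 named genes of the mitochondrial genome held 2.47%, and the 70 nuclear genes of the respiratory chain and ATP synthase 2.45%. Their sums were 334926, 304879 and 309998 for the nuclear genes. For the mitochondrial genes they were 250920, 486897 and 222047, highest in Phalange 2. Gene by gene, 23, 23 and 24 of the 70 nuclear genes were lowest in Phalange 1, 2 and 3, so no library stood out as lowest for them. Histones, RNA-binding and chromatin proteins held 2.41%, the actin cytoskeleton 2.41%, chaperones 2.27%, translation factors 2.16%, and ubiquitin, lysosome and proteasome genes 2.03%. Genes of the cell cycle held 1.07%. Among them *CDC20*, an activator of the anaphase-promoting complex, had 11282, 9014 and 13508, and the kinase *CDK1* had 10125, 7711 and 7843. *MCM2*, a subunit of the replication helicase, had 10269.8, 6436 and 6398, and the topoisomerase *TOP2A* had 8145, 8211 and 5905. In 24 of the 34 cycle genes with a mean of at least 100, Phalange 1 was the highest library, against 33.8% of all genes.

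The matrix genes were led by collagens and matrilins. Of the 6 listed collagen chains typical of cartilage, 5 were detected, against 73.3% of all genes. The sixth, *COL10A1*, had no read. Besides those given above, *COL9A2* had 474, 1177 and 704. *COL27A1*, a fibrillar collagen of cartilage, had 651, 1009 and 437. Among the other collagens *COL1A2* was highest, while its partner in the collagen I trimer, *COL1A1*, had 2.00, 10.5 and 2.87. The partner chain was thus below the limit of detection in the mean, and how completely the annotation covers it was not tested. Collagen V helps to start collagen fibrils. Its chain *COL5A1* had 6782, 8422 and 8076, and its chain *COL5A2* had 4136, 2661 and 2349. Of collagen VI, which lies around cells, *COL6A1* had 3027, 947 and 1492, and *COL6A2* had 3582, 683 and 875. *COL3A1*, a fibrous collagen, had 2565, 963 and 1902. These 3 were each highest in Phalange 1 and lowest in Phalange 2. In 9 of the 13 other collagens with a mean of at least 100 the highest library was Phalange 1, against 33.8% of all genes.

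Of 40 cartilage proteoglycans, linkers and related genes, 35 were detected, against 73.3% of all genes. The list held 1.26% of the counts. After *MATN4*, *CYTL1*, *LECT1* and *MATN1* came decorin, *DCN*, a small proteoglycan that binds collagen fibrils, with 7906, 10838 and 16333, and *ACAN*. *EPYC* (epiphycan), a small proteoglycan of epiphyseal cartilage, had 2694, 6257 and 5623. *C9H2ORF82*, now *SNORC*, a transmembrane proteoglycan of chondrocytes, had 2300.2, 3714 and 3716. The link protein *HAPLN1*, which ties aggrecan to hyaluronan, had 1459, 2021 and 3023. The large proteoglycan of loose mesenchyme, *VCAN* (versican), had 3002, 1745 and 1903. Lumican, *LUM*, of fibrous matrix, had 2310.1, 1039 and 2658. *VCAN*, which is on chromosome Z, was highest in Phalange 1, whereas *DCN* and *ACAN* were lowest there. *COMP*, which bridges collagens, differed most within the cartilage list, with 169.7, 326 and 931 and a range of 2.45 on the log2 scale. *CILP*, *HAPLN2* and *OMD*, known from articular cartilage, nervous tissue and bone, had no read in any library.

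Among other matrix proteins *SPARC*, which binds collagen during secretion, was highest with 29271, 29458 and 37261. Fibronectin, *FN1*, had 1988, 4499 and 2666. *THBS4*, thrombospondin-4, known from tendon, had 2244, 2436 and 3329. The laminin chain *LAMB1* had 2571, 2096 and 1302. *SPON2*, a secreted F-spondin family member, fell outside the lists and was named after its values were seen. It had 1927, 19112 and 26126, low in Phalange 1. *MGP*, an inhibitor of mineral formation in cartilage, had 182, 1242 and 472.

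The machinery for sulphated glycosaminoglycans was detected for 41 of 44 listed genes, against 73.3% of all genes. *PAPSS1*, which makes the sulphate donor PAPS, had 14875, 19322 and 21734, and its relative *PAPSS2* had 1298, 2061 and 1701. *UGDH*, which makes UDP-glucuronate, had 6803, 7101 and 7105, close to equal in the 3 libraries. The chondroitin sulphotransferase *CHST3* had 1824, 1866 and 2246. The chondroitin polymerizing factor *CHPF* had 423, 1608 and 952, and *SLC35D1*, which carries UDP-sugars into the secretory pathway, had 372, 946 and 766. Removal of sulphate from heparan chains outside the cell is another step in this list, and *SULF1* had 522, 6692 and 5055, low in Phalange 1. *SULF2*, which does the same, had 764, 837 and 694.

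Collagen folding and secretion was detected for 52 of 53 genes, against 73.3% of all genes. The list held 2.20% of the counts. The prolyl hydroxylase subunit and disulphide isomerase *P4HB* had 30715, 37004 and 33814. The prolyl isomerase *PPIB* had 24794, 30239 and 29303, and the collagen chaperone *SERPINH1* had 11004, 15616 and 13106. In 31 of the 48 genes of this list with a mean of at least 100, Phalange 1 was lowest, against 34.8% of all genes. Of 54 proteases and inhibitors 43 were detected, against 73.3% of all genes. *MMP2*, a gelatinase, had 3704, 4458 and 5724. Of the tissue inhibitors of metalloproteases, *TIMP3* had 3332, 1077 and 1604, *TIMP4* had 858, 1395 and 2285, and *TIMP2* had 1505, 599.9 and 1551. *TIMP3* was thus highest in Phalange 1, and the other 2 in Phalange 3. The aggrecan-cleaving family member *ADAMTS15* had 779.7, 821 and 1297. *MMP13*, the collagenase of hypertrophic cartilage, had no read.

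Of 530 genes in 27 lists of transcription and chromatin factors, 418 were detected (78.9%), against 73.3% of all genes. Of the 11741 genes placed on a chromosome by symbol 9749 were detected, so the factors did not exceed other named genes. Of the 530, 269 had a mean of at least 100 and 30 had no read in any library. Together they held 2.93% of the counts. By rank, *YBX1*, *NFIA* and the homeobox gene *HOXD12* led, followed by factors of general use. *YBX1*, a Y-box protein that binds DNA and RNA, had 26348, 24109 and 24716. Of the high mobility group genes, which bend DNA, *HMGB3* had 12414, 14958 and 18365, *HMGB2* had 12688, 11702 and 15315, and *HMGB1* had 13874, 10769.8 and 14615. *ZNF207*, grouped here by its zinc fingers, is known as a spindle assembly protein and had 12948, 12993 and 16486. *NFIA*, a CCAAT-box binding nuclear factor, had 17233, 18749 and 31116, the highest of the factors that bind specific DNA sites, and was highest in Phalange 3. Its relative *NFIB* had 4249.9, 2632 and 3716, and *NFIX* had 1529, 1085 and 1327, both highest in Phalange 1. *NFIB* is on chromosome Z, whose genes are described further on. E-proteins are the partners of tissue-specific bHLH factors. Of these, *TCF12* had 12589, 11586 and 16011, and *TCF3* had 9169, 7655 and 12749.5.

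**Figure D4:**
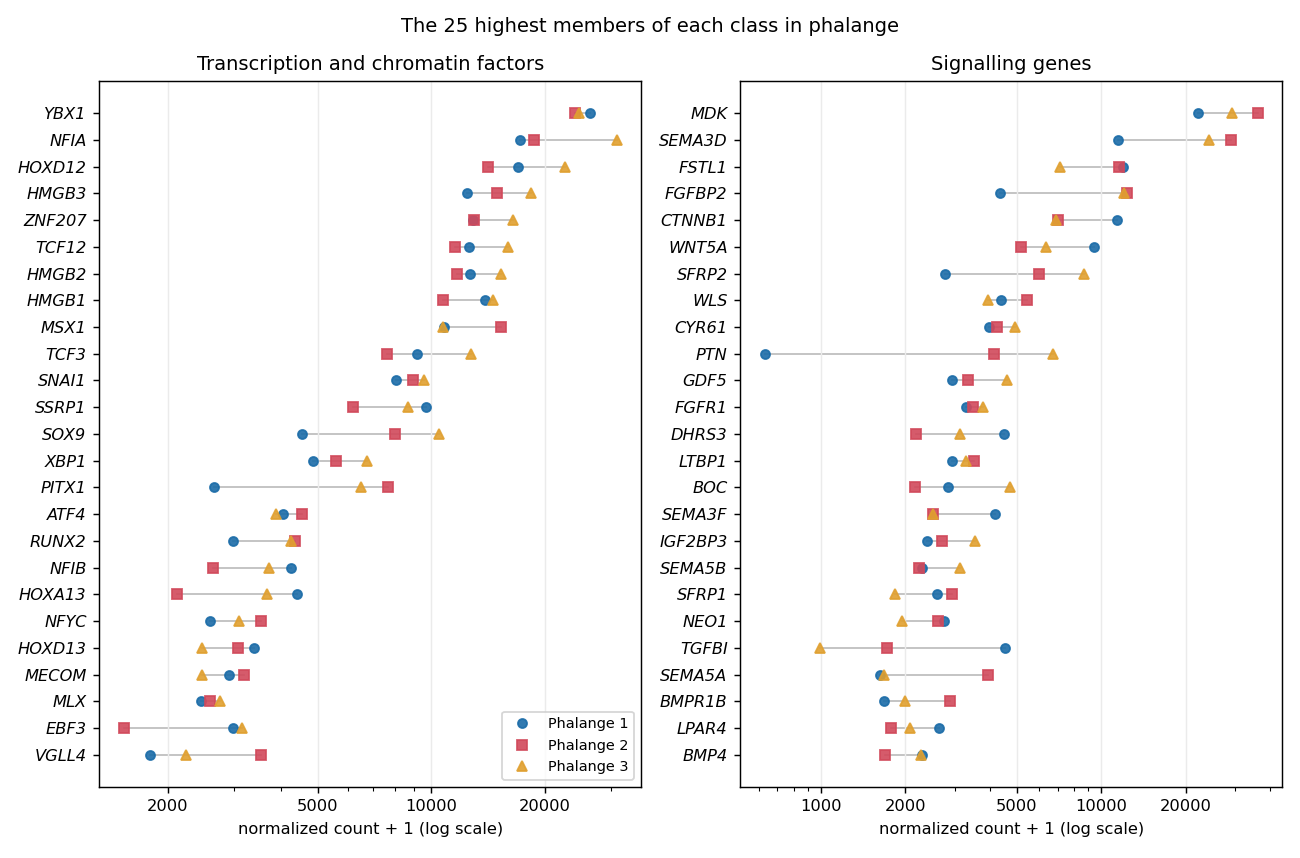
Normalized count + 1 (horizontal, log scale) of the 25 highest members of the factor lists (left) and of the signalling lists (right) in Phalange 1 (circles), 2 (squares) and 3 (triangles). None of the 25 factors spans a 4-fold range, while among the signals *PTN* and *TGFBI* exceed it.

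The *HOX* genes set position along the limb, those with the highest numbers in its distal part. Of 27 listed *HOX* genes, 16 were detected, against 73.3% of all genes, and 3 had no read. *HOXD12* had 16978, 14159 and 22633 and rank 71, the highest rank of the family by reads. Of the genes with the highest numbers, *HOXA13* had 4403, 2119 and 3659, and *HOXD13* had 3392, 3067 and 2467. *HOXD11* had 1429.6, 904 and 1729.9. *HOXA11*, which acts more proximally, had 167, 103 and 82.3, and *HOXA10* had 8.98, 6.29 and 15.3, just past the limit of detection in the mean. Genes with low numbers were detected too: *HOXA3* had 661, 887 and 743, and *HOXA7* had 284, 574 and 425. *HOXC10*, a gene of the hindlimb, was the *HOX* gene that differed most, with 297, 12.6 and 134. *HOXB9*, *HOXD3* and *HOXC8* had no read in any library. *PITX1*, which specifies the hindlimb, had 2654, 7669.6 and 6493, and *TBX4*, also of the hindlimb, had 142, 303 and 421. Both were lowest in Phalange 1. *TBX15*, a factor of limb mesenchyme and cartilage, had 262, 434 and 678. *MSX1*, a homeobox repressor of distal limb mesenchyme, had 10786, 15313 and 10782, and the related *MSX2* had 709, 306 and 203. *PRRX1*, a mark of limb mesenchyme, had 1226, 363 and 345. *NKX3-2*, a repressor that keeps chondrocytes immature, had 320.5, 1052 and 631. *DLX5*, which promotes chondrocyte maturation and bone formation, had 103, 529 and 254. *LHX2* had 451, 389 and 448, whereas *EN1*, *ISL1*, *DLX1*, *DLX6* and *SIX3* had no read in any library.

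Of the factors that act in chondrocytes, *SOX8* was at 980.4, 1013 and 1026 besides the *SOX* trio given above. *RUNX2*, which drives chondrocyte maturation and is needed for bone, had 2980.0, 4343 and 4234, with its partner *CBFB* at 1451, 1884 and 2559. *RUNX3* had 103.8, 331 and 265. In all 3 of these the lowest library was Phalange 1. Of the forkhead repressors, *FOXP2* had 1824, 3236 and 2195, and *FOXP1* had 771, 1045 and 796. The next factors regulate secretion. *XBP1*, of the stress response of the endoplasmic reticulum, had 4849, 5578 and 6738. *ATF4*, of the same response, had 4039, 4537 and 3870.4. *CREB3L2*, which regulates cargo export in chondrocytes, had 973, 1851 and 1754. *TRPS1*, a GATA-type repressor of the growth plate, had 943, 1792 and 934. Of the effectors of hedgehog signals, *GLI2* had 1924, 2489 and 2652, and *GLI3* had 1777, 889 and 1649. Of the repressors related to *SNAI1* in function, *ZEB1* had 1261, 1426 and 2473, and *SNAI2* had 741, 469 and 615. *MEF2C*, needed for hypertrophy, had 159.7, 191 and 11.5, low in Phalange 3. *ERG*, a factor of joint cartilage and vessels, had 658, 374 and 368. *STAT3*, which acts downstream of cytokine receptors, had 3377, 1599 and 2254. Of the nuclear receptors, *NR2F2* had 1206, 2259 and 2049.6, and the retinoic acid receptor *RARB* had 2046, 875 and 636. Of the 269 factors with a mean of at least 100, 28 had a range of at least 4-fold among the libraries (10.4%), against 7.95% (618) of all 7773 genes. This share depends on level: over all genes it was 19.1% for means of 100 to 300 and 4.85% for 300 to 1000. The factors were not matched to all genes by level. The widest in the *TCF* and *LEF* list was *LEF1*, which mediates Wnt signals, with 105, 622 and 319.7, and in the *SNAI*, *TWIST* and *ZEB* list *TWIST2*, with 839, 199 and 197.

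Of 306 genes in 20 signalling lists, 252 were detected (82.4%), against 73.3% of all genes. Beside the 9749 detected of 11741 genes placed on a chromosome by symbol, this share was not higher. Of the 306, 159 had a mean of at least 100 and 15 had no read. They held 1.73% of the counts. The highest was *MDK*, midkine, a heparin-binding growth factor, with 22092, 36157 and 29279.5. The related *PTN*, pleiotrophin, a growth factor of fetal cartilage, had 631, 4145 and 6717, so Phalange 1 lay far below the others. Semaphorins are guidance cues. The secreted *SEMA3D* had 11466, 28919 and 24309, and *SEMA3F* had 4163, 2515 and 2522. Of the membrane-bound ones, *SEMA5B* had 2295, 2231 and 3142, and *SEMA5A* had 1623, 3931 and 1677.

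In the BMP pathway the ligands detected best were *GDF5*, *BMP4* and *BMP2*. *GDF5*, a ligand of the forming joint, had 2925, 3343 and 4628. *BMP4* had 2293, 1699 and 2283, and *BMP2* had 476, 128 and 240.3. Some ligands stayed under a mean of 10: *BMP7* had 3.99, 0 and 0, and *BMP6* had 0, 2.10 and 0. The receptor *BMPR1B*, which binds GDF5 and is required for digit cartilage, had 1680.2, 2898 and 1992. The receptors *BMPR1A* and *BMPR2* lay close to the limit of detection: *BMPR1A* had 3.99, 0 and 29.7, and *BMPR2* had 8.98, 9.44 and 11.5. BMPs and activins share further type II receptors, of which *ACVR2A* had 651, 552 and 492, and *ACVR2B* had 1302, 1222 and 3014. The antagonists bind ligands outside the cell. The follistatin-like *FSTL1* had 11947, 11552 and 7139, and *NBL1* had 938, 1233 and 1939.5. Chordin, *CHRD*, had 129, 335 and 655, and *SOSTDC1* had 87.9, 589 and 568. *CHRD* and *SOSTDC1* were lowest in Phalange 1, while follistatin, *FST*, with 409, 90.2 and 67.0, was highest there. *GREM1* had 52.9, 31.5 and 57.4. Inside the cell, BMP receptors activate *SMAD1* and *SMAD5*. *SMAD1* had 1259, 1433 and 1864, and *SMAD5* had 575, 366 and 436. Of the target genes, *ID1* had 1741, 1319 and 1182, and *ID2* had 1498, 2109 and 2374.

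Of the TGF-beta ligands *TGFB2* had 1298, 2289 and 1944, and *TGFB3* had 1222, 821 and 534, while *TGFB1* had 7.99, 6.29 and 4.79, under the limit of detection. The latent-TGF-beta binding protein *LTBP1* had 2947, 3503 and 3307. Of the receptors, *TGFBR1* had 553, 427 and 659, and *TGFBR2* had 2.00, 70.3 and 27.8. *TGFBI*, a matrix protein induced by TGF-beta, was highest in Phalange 1, with 4521, 1721 and 995. Of the mediators, *SMAD2* had 2114, 1120.1 and 1399, and *SMAD3* had 228, 87.0 and 42.1, both highest in Phalange 1. *SMAD2* is on chromosome Z, whose genes are described further on.

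Among 11 Wnt ligands 8 were detected, against 73.3% of all genes. *WNT5A*, a ligand of the branch that does not use beta-catenin, had 9398, 5191 and 6345, and the related *WNT11* had 1200.0, 483 and 623. Both were highest in Phalange 1. *WNT9A*, a ligand of the joint, had 579, 886 and 1377. *WNT4*, known from the joint, had 6.99, 0 and 45.0, and *WNT6* had no read. Beta-catenin, *CTNNB1*, which carries the canonical signal and also joins cells, had 11371, 6998 and 6891. *WLS*, which carries Wnt proteins to the cell surface, had 4374, 5445 and 3931. Of the secreted inhibitors, *SFRP2* had 2766, 5989.5 and 8685, and *SFRP1* had 2602, 2939 and 1836. *FRZB*, known from articular cartilage, had 1760.1, 2352 and 1553, and *WIF1* had 458, 389 and 474. The inhibitor *SFRP2* differed more among the libraries than the other 3. Of the receptors, *FZD2* had 898, 1143 and 863, *FZD9* had 501, 974 and 659.6, and *FZD4* had 609, 875 and 398, each highest in Phalange 2. *LGR5*, a receptor of R-spondins, had 755, 5.24 and 119.7, and the R-spondin *RSPO3* had 97.8, 466 and 563. Both had a range of at least 4-fold, *LGR5* with its high library in Phalange 1 and *RSPO3* with its low one there.

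The FGF receptors were all detected. *FGFR1* had 3294, 3494 and 3795, close to equal in the libraries. *FGFR3*, which restrains chondrocyte division, had 918, 3120.1 and 1954. *FGFR2* had 1347, 1125 and 981, and *FGFR4* had 1158, 1601 and 908. *FGFBP2*, a secreted FGF-binding protein, had 4339, 12339.8 and 12063. The level of *FGFR3* and of *FGFBP2* was lowest in Phalange 1. Of 13 ligands 7 were detected, against 73.3% of all genes. *FGF10*, a ligand of limb mesenchyme, had 530.1, 919.8 and 886, and *FGF7* had 88.9, 285 and 150.3. *FGF18*, a ligand of the growth plate, had 28.0, 3.15 and 17.2. The feedback inhibitor *SPRY2* had 1298, 391 and 1252, and the phosphatase *DUSP6* had 331, 139 and 78.5.

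In the hedgehog and PTHrP list, *PTCH1*, the receptor and target, had 217, 208 and 25.8. *HHIP*, a binding inhibitor that is also a target, had 208, 109 and 246. Of the coreceptors, *BOC* had 2842, 2169.9 and 4733, and *CDON* had 636, 482 and 581. *PTHLH*, which holds back hypertrophy, had 123, 21.0 and 143. *PTCH1* was low in Phalange 3 and *PTHLH* low in Phalange 2. In the IGF list the receptor *IGF1R* had 1801, 1521 and 1984, and the binding protein *IGFBP5* had 714, 571 and 929.6. The ligand *IGF2* had 45.9, 60.8 and 16.3. *IGF2BP3*, which binds *IGF2* mRNA among others, had 2384, 2715 and 3536. No gene of this list reached a 4-fold range among the 9 with a mean of at least 100, against 7.95% of all genes. With so few genes this says little about the list. Of the Notch receptors, *NOTCH2* had 1363, 1358 and 1155, and *NOTCH1* had 464, 566 and 627. Of their ligands, *JAG1* had 80.9, 51.4 and 18.2, and *JAG2* had 95.8, 50.3 and 0. *CYR61*, now *CCN1*, a matricellular protein, had 3976, 4253 and 4934.

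Retinoic acid genes had the widest spread of the pathways with 8 or more genes at a mean of at least 100: 4 of 8 had a range of at least 4-fold, against 7.95% of all genes. Of the enzymes that make retinoic acid, *ALDH1A2* had 358, 886 and 1704, and *ALDH1A3* had 1083, 43.0 and 316. *CYP26A1*, which degrades it, had 84.9, 418 and 475, and the binding protein *CRABP1* had 1869.9, 431 and 316. *CRABP1* and *ALDH1A3* were thus highest in Phalange 1, while *ALDH1A2* and *CYP26A1* were lowest there. *DHRS3*, which lowers retinaldehyde, had 4517, 2179 and 3131. In the list of guidance receptors *EPHA7* had 548, 2627 and 1861. The chemokine *CXCL12* had 1276, 338 and 614. *PDGFRA*, a growth factor receptor of mesenchyme, had 733, 602 and 394. *ENPP2* (autotaxin), which makes lysophosphatidic acid, had 2073, 599 and 818. Of the receptors of this lipid, *LPAR4* had 2644, 1785 and 2086, and *LPAR1* had 1833, 843 and 1390.0. Of the 8 genes of this lipid list with a mean of at least 100, 7 were lowest in Phalange 2 (35.1% of all genes) and 7 highest in Phalange 1 (33.8%). Over all 159 signalling genes with a mean of at least 100, 26 had a range of at least 4-fold (16.4%), against 7.95% of all genes. This share depends on level: over all genes it was 19.1% for means of 100 to 300 and 4.85% for 300 to 1000. Neither these genes nor the retinoic acid list were matched to all genes by level.

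Markers of hypertrophic cartilage and of other cells were checked next. For hypertrophic cartilage, *COL10A1* and *MMP13* had no read in any library, which allows up to 3 reads in each. *SPP1* (osteopontin) had 305, 205 and 305. *ALPL*, an alkaline phosphatase of mineralizing cells, had 0, 50.3 and 65.1, with 0 reads in Phalange 1. For skeletal muscle, 18 of 32 genes were detected, against 73.3% of all genes, and 6 had a mean of at least 100. All 6 were highest in Phalange 1, against 33.8% of all genes with a mean of at least 100. The sum over the list was 5505, 1025 and 943. Cardiac actin *ACTC1*, also an actin of embryonic skeletal muscle, had 1868, 0 and 110.1. Of the troponins, *TNNC2* had 672, 132 and 37.3, and *TNNI1* had 407, 59.8 and 42.1. Of the regulators of muscle formation, *MYOG* had 103.8, 0 and 0, and *MYOD1* had 107, 6.29 and 2.87. *MYOG* was therefore seen in Phalange 1 only. For blood the sum was 40155, 726 and 8426. All 5 genes of the list with a mean of at least 100, which are globins, exceeded a 4-fold range, against 7.95% of all genes. Of the alpha-type globins, *HBA1* had 29931, 512 and 6232, and *HBAD* had 8521, 168 and 1850.5. For endothelium all 15 genes were detected, against 73.3% of all genes, with sums of 3417, 1373 and 1821. The receptor *TIE1* had 326, 0 and 118 and the junction cadherin *CDH5* 169, 8.39 and 79.5. For tendon and fibrous tissue, *SCX*, the tendon factor, had 131, 25.2 and 6.70 and *TNMD* (tenomodulin) 202, 58.7 and 206. The sum of that list was 61946, 55397 and 55612, most of it *COL1A2*. For epidermis, *TP63*, the factor of basal keratinocytes, had 119, 0 and 0 and *KRT14* 111, 85.0 and 124, with list sums of 1729, 1096 and 1026. For nerve and Schwann cells, *SOX10*, a factor of Schwann cells, had 0, 0 and 69.9, and so was at 0 in Phalange 1 and 2. Other genes of this list were read in every library. *GAP43* had 909, 577 and 473, *FABP7* had 545, 303 and 323, and *TUBB3* had 323, 581 and 857. Of the 4 genes of the list with a mean of at least 100, 2 were highest in Phalange 1. The list sums were 6228, 7889.9 and 7597, most of it *PMP22*, which many other cells express too. For macrophages, *CSF1R* had 520.1, 537 and 171. The leukocyte antigen *PTPRC* had 2.99, 8.39 and 8.62, under the limit of detection in the mean. Of the 6 genes of this list with a mean of at least 100, 4 were highest in Phalange 1 and 2, *CSF1R* among them, in Phalange 2. *IRF8* had 2304, 1225 and 1948, and *CD74* had 935, 341 and 229. The list sums were 5522, 3521 and 3316. Among genes of the joint interzone, 12 of 12 were detected, led by *SFRP2* and *GDF5*. As 73.3% of all genes were detected, such counts for short lists say little about the cells present. Blood and muscle genes thus had their highest sums in the library in which the cartilage genes were lowest. Their part in the level of any other gene was not tested.

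The spread among the libraries fell with the level up to means of 3000 to 10000, where the median coefficient of variation was 14.8%, and not beyond. The median coefficient of variation was 91.7% for genes with a mean from 10 to 30, 40.3% from 100 to 300, 18.2% from 1000 to 3000 and 15.5% at 10000 or more, where counting of reads alone gives medians of 23.8%, 7.59%, 2.54% and 0.808%. By a chi-square test on the reads, with expected reads from the size factors, 10751 of the 11711 detected genes (91.8%) differed among the 3 libraries at a Benjamini-Hochberg adjusted p under 0.05, so nearly all genes spread more than counting error allows. This test compares these libraries, and reads that are PCR copies count in it as separate. Against the spread of genes of like level, estimated with edgeR, 118 genes stood out at the same threshold, and 100 of these were also among the 618 with a range of at least 4-fold and a mean of at least 100. Pearson's r of log2(normalized count + 1) across the 7773 genes was 0.816 between Phalange 1 and 2, 0.876 between Phalange 1 and 3 and 0.885 between Phalange 2 and 3, as a description over genes, which are not independent. The 618 genes were highest in Phalange 1 in 256 cases, in Phalange 2 in 214 and in Phalange 3 in 148. Without Phalange 1, 234 genes had such a range between the remaining pair of libraries, without Phalange 2, 267, and without Phalange 3, 417.

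**Figure D5:**
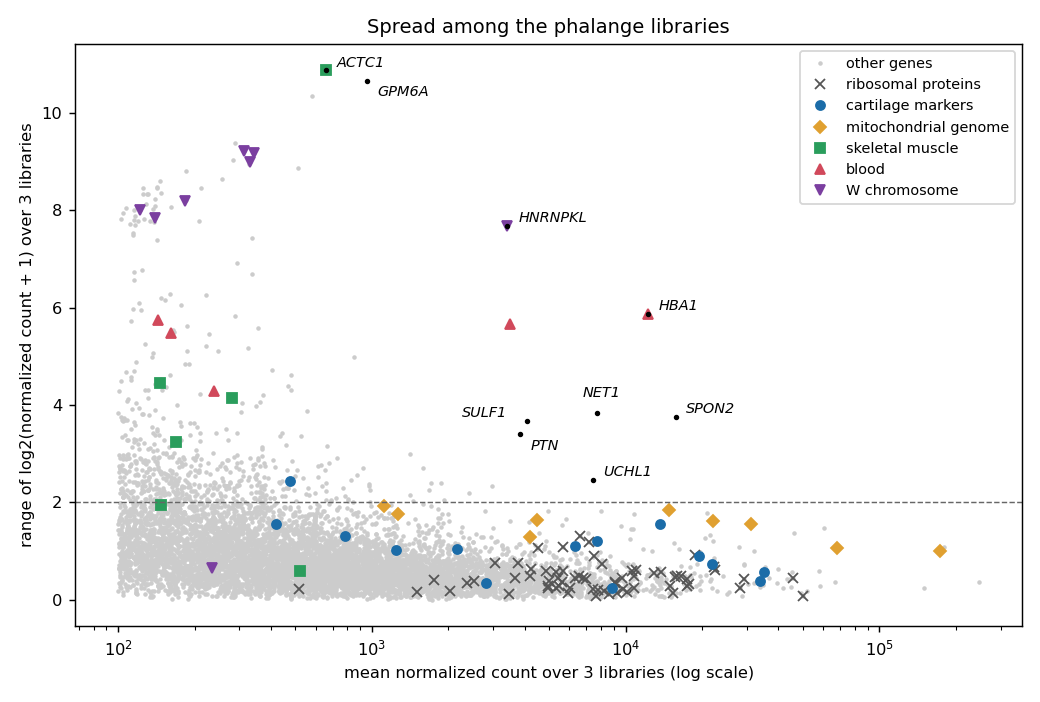
Range of log2(normalized count + 1) over the 3 libraries (vertical) against the mean (horizontal, log scale) for the 7773 genes with a mean of at least 100. The dashed line marks the 4-fold range, which 7.95% of these genes reached. Ribosomal proteins all lie below the line, blood genes all above it, and 7 of 8 W-linked genes lie far above it.

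Of the 20 genes with the largest SD on the log2 scale, 12 had 0 reads in Phalange 1 and 7 had 0 reads in Phalange 2. Among the 20, 5 were on W and 5 had no symbol, and all of these had 0 reads in Phalange 1. The largest SD was that of *GPM6A*, a membrane glycoprotein known from neurons, with 0, 1597 and 1271, at least 533-fold higher in the highest library than the limit of 3 reads in the lowest. *FHL1*, a LIM protein of muscle, had 440.3, 0 and 1303. These were followed by *ACTC1*, given above, which had a wider range than both, at least 594-fold. Others of the 20 with 0 reads in Phalange 2 were *VSIG10L* (664, 0 and 204), *ACOX2*, a peroxisomal oxidase (288, 0 and 349), *CORO2B*, an actin-binding coronin (445, 0 and 109), *TIE1* and *TMEM173*, now known as STING (216, 0 and 201). *SGCZ*, a sarcoglycan, had 0, 301 and 249.9. In all, 44 genes with a mean of at least 100 had 0 reads in a library, 23 of them in Phalange 1, 20 in Phalange 2 and 1 in Phalange 3. Of the 23 in Phalange 1, 6 were on W and 7 had no symbol.

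The W-linked genes moved together. In birds females are ZW and males ZZ, and the sex of the embryos was not stated in the sources used here. Chromosomes were taken by symbol from RefSeq genes of GRCg7b. Of 20 genes placed on W, 5 had a read in Phalange 1, 19 in Phalange 2 and 18 in Phalange 3, and their sums were 283, 8686 and 6829 normalized counts. Of the 8 with a mean of at least 100, 7 had a range of at least 4-fold, against 7.50% of genes on other chromosomes. The exception was a gene listed as *NEDD4L*, a symbol that 2 genes of the table share. Both were placed on W through that symbol and are counted in these numbers and sums. The other *NEDD4L* had 0.998, 16.8 and 28.7, below a mean of 100. Whether the exception lies on W was not tested, so it is no evidence of W-linked reads in Phalange 1. *HNRNPKL*, a W-linked relative of *HNRNPK*, had 28.0, 5932 and 4295. *ATP5F1AW*, the W copy of an ATP synthase subunit, had 0, 192 and 229, while the Z copy *ATP5F1AZ* had 34552, 15052 and 16685, so the library without the W transcript had the most of the Z transcript. *UBAP2*, placed on Z by its symbol and counted with the Z-linked genes below, nevertheless had 0.998, 592 and 936. Its placement was not tested. Near-identical Z and W copies can share reads, which was not tested. Over the 314 Z-linked genes with a mean of at least 100, Phalange 1 was the highest library in 210 (66.9%), against 32.3% of 6653 genes on other chromosomes. Z-linked genes named in other paragraphs with Phalange 1 highest included *NFIB*, *VCAN*, *SMAD2*, *FST*, *LPAR1*, *NPR3* and *RPS6*. The Z-linked *HAPLN1*, *THBS4* and *FGF10* were lowest in Phalange 1, and *MEF2C* and *NPR2* were highest in Phalange 2. The part of the chromosome in the level of these genes was not tested. The median deviation of the Z-linked genes from the mean of the 3 libraries, on the log2 scale and relative to the other chromosomes, was 0.37 in Phalange 1, -0.16 in Phalange 2 and -0.19 in Phalange 3. Of these 314 genes 38 had a range of at least 4-fold (12.1%), against 7.50% of genes on other chromosomes. An example was *PPWD1*, a peptidyl-prolyl isomerase, with 2716, 417 and 1633. *NUP155*, of the nuclear pore, had 1629, 216 and 336.

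All 9 named mitochondrial genes were highest in Phalange 2, against 33.5% of all genes with a mean of at least 100. None reached a 4-fold range, against 7.95% of all genes. *ND1*, a subunit of complex I, had 17671, 36737 and 11959, and *ATP6*, of the ATP synthase, had 23307, 52747 and 17879. The median deviation of the 9 genes on the log2 scale, relative to genes of other chromosomes, was 0.90 in Phalange 2, -0.16 in Phalange 1 and -0.69 in Phalange 3. Of the 9 genes, 7 were lowest in Phalange 3 and 2, *COX3* among them, in Phalange 1. The 2 genes without a symbol among the 25 highest had Phalange 2 highest and Phalange 3 lowest.

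Among the 2587 genes with a mean of at least 1000, 18 had a range of at least 4-fold (0.696%). These were looked at after the values were seen. Besides *PPWD1*, *HNRNPKL*, 2 globins, *SPON2*, *SULF1*, *PTN*, *TGFBI*, *COL6A2* and *EPHA7*, they included *NET1*, an exchange factor for RhoA, with 19189.9, 1347 and 2513, *UCHL1*, a ubiquitin hydrolase of neurons, with 16119, 2919.8 and 3219, and 2 related kinases. Of these, *SGK3* had 494, 2602 and 2513, and *SGK1* had 1275, 877 and 3629. *NET1*, *UCHL1* and *COL6A2* were high in Phalange 1 alone, and *TGFBI*, *PPWD1* and the 2 globins were highest in it too. *HNRNPKL*, *SPON2*, *SULF1*, *PTN*, *EPHA7* and *SGK3* were low in it alone. The others of the 18 were *ADA*, *BTBD6* and 2 genes without a symbol, all 4 lowest in Phalange 1. *AKR1D1*, a steroid reductase that did not reach the 4-fold range, had 8877, 23458 and 30492. At the other end, 747 of these genes (28.9%) stayed within a 1.25-fold range. *MRPS25*, of the mitochondrial ribosome, had 1728, 1726 and 1723. *SERP1*, of the secretory pathway, had 3358, 3347 and 3367, and *SRP72*, of the signal recognition particle, had 3917, 3921 and 3945.

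By list, the number of genes with a range of at least 4-fold was 0 of 66 for cytosolic ribosomal proteins, 0 of 46 for translation factors, 0 of 42 for ubiquitin, lysosome and proteasome genes, 0 of 34 for the cell cycle and 1 of 70 for the nuclear respiratory chain, against 7.95% of all genes. The median level of these 5 lists was between 2881 and 7448 normalized counts, a range of levels at which the spread of all genes was smaller as well. The ribosomal proteins still moved together: 58 of 66 were lowest in Phalange 3, against 30.1% of all genes, and their sums were 710587, 740515 and 579931. *RPL4* had 48369, 51261 and 49633, an exception, while *RPS3* had 25977, 24706 and 16347, and *RPS6* had 25590.2, 17006 and 13554. In the glycosaminoglycan list 7 of 30 exceeded the range, among them *SULF1* and the sulphotransferase *CHST15*, with 529, 2.10 and 479.6. In the natriuretic peptide list both of the 2 genes with a mean of at least 100 did so, *NPR3*, the clearance receptor, with 473, 9.44 and 13.4, and *NPR2*, the receptor of C-type natriuretic peptide in cartilage, with 234, 298 and 71.8. These shares depend on level too: over all genes the share was 19.1% for means of 100 to 300, where *NPR3* and *NPR2* lie. For means of 300 to 1000 it was 4.85%. Neither of these 2 lists was matched to all genes by level. Of the 14 cartilage genes only *COMP* reached a 4-fold range.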

How the data were processed

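The 3 phalange libraries were made by Smart-seq2 from poly(A)-RNA (18 cycles of preamplification, tagmentation, 14 cycles of PCR) and sequenced as single reads of 50 bp. Per the study's methods, the authors trimmed the reads with Trimmomatic, aligned them with STAR to the chicken genome, counted reads per gene with featureCounts on Ensembl genes and divided by DESeq2 size factors. The deposited values are these normalized counts, a signal per gene that is not divided by gene length. Unique molecules were not marked, so PCR copies remain in the counts. Whether counting used strand was not given in the sources used here.

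Each value was divided by the smallest value of its library, which gave whole reads for 100% of values (tolerance 0.01). Genes were ranked by mean normalized count. A mean of at least 10 counted as detected, and the spread, on log2(normalized count + 1), was described for means of at least 100. Differences among libraries beyond counting error were tested on the recovered reads with a chi-square test (2 degrees of freedom, expected reads from the size factors, Benjamini-Hochberg adjustment), and with a dispersion shared by genes of like level in edgeR 4.0.16 (R 4.3.3). Other values came from Python 3.11.15, numpy 2.4.6, pandas 2.3.3 and scipy 1.17.1. The chi-square test was tested on simulated data.

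Named genes were the 25 with the highest mean, up to 6 of the highest members and the most variable member of each of 78 lists, the 20 genes with the largest SD, and cartilage markers. Another 71 genes were named after their values were seen, for their known roles or their spread. The members and lists were chosen with earlier results of these data known. No column of sample values lacked a sample. The interzone and ChIP-seq samples and the authors' own comparisons between tissues were not used here. Chromosomes came from RefSeq genes of GRCg7b, matched by symbol for 11741 genes, and no coordinates are given because the study used an earlier build.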

Additional observations from a re-analysis of the deposited data

How the results depend on the processing

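The number of genes detected lay between 9634 and 15030 over the other minima tried. With a minimum mean of 100 in place of 10, 269 transcription factors and 159 signalling genes counted as detected. The number of genes with a range of at least 4-fold followed the minimum mean: it was 1706 at 30, 151 at 300 and 4656 with no minimum. With 1 library left out it was between 234 and 417, since a range over fewer libraries is smaller by construction. It was 547 with a pseudocount of 10, 620 with TMM scaling and 624 with scaling to library totals, and 611 without W-linked and mitochondrial genes, a setting chosen after seeing the data. Of the 618 genes, 601 were also found with library totals and 617 with TMM scaling. The dispersion shared by genes of like level gave 118 genes in place of the 10751 of the chi-square test, because it measures each gene against the spread of its neighbours and not against counting error. At an unadjusted p under 0.05 it gave 1033. The mean of a named gene cannot move by more than 1 SD when 1 of 3 libraries is left out, so leaving out a library says nothing about its stability, and for most named genes the values of each library are printed instead. No paired analysis was possible because no groups were compared. Scaling by coding length was not run, as no gene lengths of this annotation were in the files or tables used here. For genes with a mean from 10 to 30, counting error alone gives a median coefficient of variation of 23.8%.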
